A study of Mus musculus with 12 samples.

Results

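Transcriptional regulatory elements (TREs) that lie within introns, away from every annotated transcription start site (TSS), were examined in mouse spermatocytes during prophase I of meiosis. The data are 3 lists of dREG peaks made from leChRO-seq. In this run-on assay, polymerases that are transcribing on isolated chromatin add biotin-labelled nucleotides to the RNA they carry, which is captured on beads and sequenced. Cells came from adult wild-type mice, for which the methods give no strain at this step and the C57Bl/6J and DBA/2J backgrounds for the study as a whole, and were enriched by STAPUT, a separation by sedimentation that can leave cells of earlier or later stages in a fraction. There were 4 libraries from leptonema/zygonema (LZ), 4 from pachynema (P) and 4 from diplonema (D), and the libraries of a substage were pooled before peaks were called. The sample labels state single-end sequencing, and the methods describe paired-end sequencing.

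Peaks of the 3 lists that overlapped or touched were merged into 65172 TREs, 63116 of them on chromosomes 1 to 19. A TRE was placed in this class when its nearest edge was at least 1000 bp from every TSS of the GENCODE M21 annotation and its midpoint lay inside an annotated gene but in no exon. This held for 15960 TREs, or 25.3% of the autosomal total. The other autosomal TREs were 25410 proximal ones, under 1000 bp from a TSS, 19532 distal ones between genes and 2214 distal ones in exons. No measured value entered the rule beyond the call of the peak itself. In the 200 bp on either side of the distance limit, 635 TREs with an intronic midpoint lay 800 to 1000 bp from a TSS and 512 lay 1000 to 1200 bp from one. The sets nearer to and farther from the TSS had LZ peaks in 72.0% and 70.7%, P peaks in 59.7% and 60.9%, and D peaks in 26.8% and 21.5%. Their median dREG scores were 0.467 and 0.451 in LZ, 0.471 and 0.420 in P, and 0.418 and 0.392 in D.

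Distal TREs include enhancers, stretches of DNA that bind transcription factors and raise the activity of a promoter from a distance. Active enhancers are themselves transcribed, usually in both directions and into short, unstable RNAs, which is why nascent RNA methods detect them. dREG is a machine-learning tool that recognises this pattern of paired initiation in run-on reads and gives each call a score. An enhancer inside an intron may act on the gene that hosts it, on a neighbour, or on neither, and its position alone does not tell which. In spermatocytes the autosomes go through a phase of strong transcription at pachynema, and A-MYB (Mybl1) is a known activator of that phase.

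For a view of the sequences themselves, the intronic TRE with the highest within-list rank was taken for each pattern of calls, and 5 of these 7 are shown. They are the TRE called in all 3 substages, the 3 called in a single substage, and the one called in P and D but not LZ, because these patterns carry the comparisons below. Each line gives the host gene, the central 200 bp on mm10 (GRCm38) and the plus-strand sequence, 5′ to 3′, from the RefSeq GRCm38.p6 genome. Capitals mark matches on either strand to 9 short motifs named further on, and a match is a description of the letters, not evidence of binding.
Ttll5, chr12:85904081-85904280: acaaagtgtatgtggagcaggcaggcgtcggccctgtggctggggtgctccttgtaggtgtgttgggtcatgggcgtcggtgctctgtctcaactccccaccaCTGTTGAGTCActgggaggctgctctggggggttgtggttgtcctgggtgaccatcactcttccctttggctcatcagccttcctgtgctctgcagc
Tbpl1, chr10:22716141-22716340: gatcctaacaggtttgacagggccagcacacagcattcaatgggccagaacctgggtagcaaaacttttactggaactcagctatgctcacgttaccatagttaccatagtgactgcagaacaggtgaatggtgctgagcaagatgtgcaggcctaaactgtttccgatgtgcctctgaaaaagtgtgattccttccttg
Pcsk5, chr19:17433691-17433890: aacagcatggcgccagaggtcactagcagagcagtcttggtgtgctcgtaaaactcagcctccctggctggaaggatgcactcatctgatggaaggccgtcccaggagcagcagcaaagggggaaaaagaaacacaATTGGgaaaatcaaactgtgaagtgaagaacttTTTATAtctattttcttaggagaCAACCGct
Pebp4, chr14:69861516-69861715: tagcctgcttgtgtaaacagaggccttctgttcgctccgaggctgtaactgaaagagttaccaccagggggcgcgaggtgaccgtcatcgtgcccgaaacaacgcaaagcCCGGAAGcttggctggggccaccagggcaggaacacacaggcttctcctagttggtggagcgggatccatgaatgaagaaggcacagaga
Calm2, chr17:87441321-87441520: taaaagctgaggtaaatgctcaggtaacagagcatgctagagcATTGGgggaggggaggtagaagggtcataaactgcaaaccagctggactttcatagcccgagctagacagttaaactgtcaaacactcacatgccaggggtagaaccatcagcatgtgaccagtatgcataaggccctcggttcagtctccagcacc

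The TRE in Ttll5, a tubulin polyglutamylase gene, had dREG scores of 1.63 in LZ, 1.57 in P and 1.19 in D, and the first of these was the highest score in the LZ list. It lay 8080 bp from the nearest TSS, and its sequence holds a MYB match and an AP-1 match that share bases. The LZ-only example lies in Tbpl1, which encodes a TBP-like factor required for spermatid development, and scored 1.31, with none of the 9 motifs in its window. Pcsk5, a proprotein convertase gene, hosts the P-only example at 99.6% of its length, 36164 bp from the nearest TSS, with a score of 0.989 and matches to MYB, NFY and TATA. The D-only example in Pebp4 scored 0.862, and the TRE in Calm2, one of the calmodulin genes, scored 1.13 in P and 1.26 in D. In the Pebp4 window 10 CpG dinucleotides and an ETS match were found. The remaining patterns were led by a TRE in Eps15l1 (chr8:72390131-72390960), with scores of 1.57 in LZ and 1.26 in P, and by one in the lincRNA gene 1700019C18Rik (chr13:35200761-35201250), with scores of 1.17 in LZ and 0.310 in D. The promoters of all 7 hosts were called in each substage, including the substages in which the TRE itself was not. Of all intronic TREs 59.7% had a host promoter called in each substage, and these 7 were picked by rank.

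Intronic TREs were called most often in LZ and least often in D. An LZ peak was present in 12100 of them, or 75.8% (Wilson 95% interval 75.1 to 76.5%), where all autosomal TREs had 78.2%. P peaks were in 10191, or 63.9% (63.1 to 64.6%), against 72.1% of all TREs, and D peaks in 4169, or 26.1% (25.4 to 26.8%), against 39.0%. Intronic TREs therefore lay below the series-wide share in each list, by the widest margin in D. The lists themselves differ in length, with 71107, 68352 and 38603 peaks, and hold no read counts. Depth and substage cannot be told apart in such calls, there is 1 list per substage and no replicate spread, so substages were not tested against each other. The intervals cover the counting of TREs only.

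Proximal TREs showed higher shares, 81.7% in LZ, 81.6% in P and 56.8% in D, and intronic TREs were below them on 19 of 19 autosomes in each list. The gap ran from 3.29 to 9.32 percentage points over chromosomes in LZ, from 14.4 to 22.3 in P and from 25.0 to 33.5 in D. Intergenic TREs were nearer, with 76.2%, 67.2% and 28.0%. In P and D the intronic share was below the intergenic one on 18 of 19 autosomes. In LZ that held on only 10 of 19, so intronic and intergenic TREs were not separated there beyond the spread between chromosomes. With lists cut to equal length by score, the intronic shares became 71.1% in LZ, 59.0% in P and 51.9% in D, so the D share moved most and the order of the substages was kept.

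Most intronic TREs were called in a single list. LZ alone accounted for 5169 intronic TREs (32.4%), P alone for 2691 (16.9%) and D alone for 526 (3.30%). These shares were close to those of intergenic TREs, 29.6%, 16.8% and 2.68%. Among proximal TREs they were 14.6%, 11.5% and 3.08%. Another 3931 intronic TREs (24.6%) were called in LZ and P, 643 (4.03%) in P and D, and 74 (0.464%) in LZ and D. Peaks in all 3 lists were found in 2926 TREs, or 18.3% (17.7 to 18.9%), compared with 49.4% of proximal and 20.6% of intergenic TREs. The plot of call patterns shows that the distal classes resemble each other and that proximal TREs differ from both mainly in the share called throughout.

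**Figure D1:**
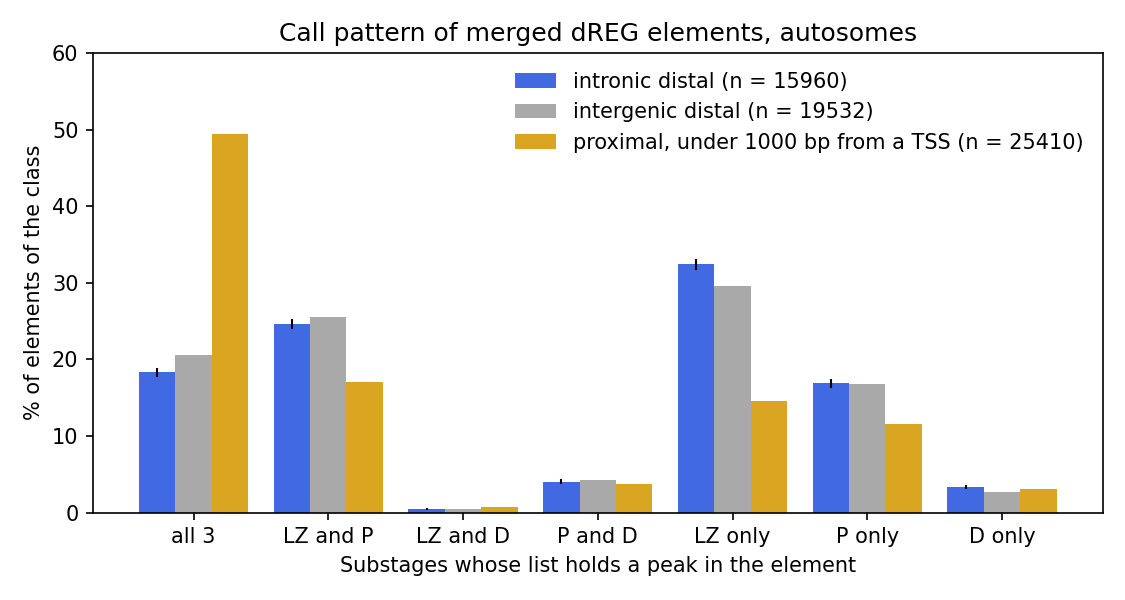
Percent of intronic, intergenic and proximal autosomal TREs (vertical axis) with each pattern of calls over the LZ, P and D lists (horizontal axis); black lines are Wilson 95% intervals of the intronic shares. Calls in all 3 lists make up 18.3% of intronic and 49.4% of proximal TREs, and LZ-only calls 32.4% and 14.6%.

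TREs called throughout scored higher than those called once, with a median LZ score of 1.03 against 0.388 for LZ-only TREs. A TRE takes the highest score of its peaks in a list. The 2926 TREs called throughout held 4170 LZ peaks, and the 5169 LZ-only TREs held 5169. The part of this in the comparisons of score was not tested. A merged TRE is wider the more lists it draws on, so width was compared by single peaks: the median LZ peak was 560 bp wide in TREs called throughout and 380 bp in LZ-only TREs. P-only TREs had a median P score of 0.361, lower than 0.906 for TREs called in all 3. Scores are not scaled between lists, so these are comparisons within a list. By rank within a list, the median intronic TRE was at percentile 44.0 of the LZ list, 41.7 of the P list and 40.5 of the D list, and the median proximal TRE at 70.2, 69.7 and 69.0. Whether an LZ call recurred in P followed its score: 56.7% of LZ-called intronic TREs also had a P peak, with 20.7% below the lower quartile of the score and 97.1% above the upper quartile. From P to D the share was 35.0%, with 9.39% and 78.9% in the same order. A missing call among low-scoring TREs therefore says little about activity.

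Intronic sequence far enough from a TSS to qualify amounted to 967.1 Mb, and held 16.5 TREs per Mb, from 14.5 on chromosome 1 to 19.5 on chromosome 11. Qualifying intergenic sequence, 1264 Mb, held 15.4 per Mb. The ratio of these densities was 1.07, above 1 on 13 of 19 autosomes, and ranged from 0.878 on chromosome 9 to 1.26 on chromosome 14. The processing moved it both ways: with scores of at least 0.5 both densities were 8.46 per Mb, and with RefSeq TSSs they were 16.9 and 14.7 per Mb. Requiring no base in an exon, which can only lower the intronic value, gave 15.2 and 15.3 per Mb. The difference between introns and intergenic sequence was within the spread between chromosomes.

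Within introns the density fell with distance from the nearest TSS of any gene. It was 30.3 TREs per Mb at 1000 to 2000 bp, 18.8 at 2000 to 5000 bp, 15.7 at 10000 to 20000 bp and 10.5 beyond 100000 bp. The median distance was 9964 bp, compared with 17472 bp for intergenic TREs. Calls in LZ became more frequent with distance, from 72.6% of the TREs at 1000 to 2000 bp to 82.8% of those beyond 100000 bp. The corresponding D shares were 22.5% and 28.1%.

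Along the host gene the 5′ end was the densest. For 12752 TREs that lay in exactly 1 gene, a protein-coding one, with the gene divided by length into 10 equal bins, bin 1 of the gene held 23.6 per Mb of qualifying intron and bin 10 held 13.3, with 16.3 overall. Bin 1 contained 12.8% of the TREs and 8.83% of the sequence. From bin 4 to bin 8 the density lay between 14.9 and 16.0 per Mb, and it dropped to 12.8 in bin 9. The share of TREs called in P was nearly level over bins 1 to 9, between 62.6% and 65.1%, and was 59.8% in bin 10.

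**Figure D2:**
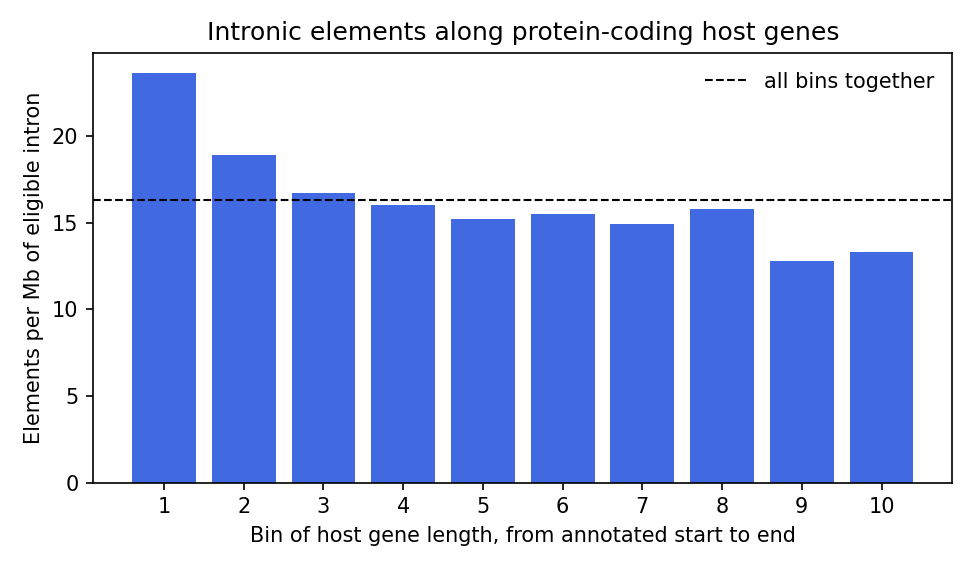
Intronic TREs per Mb of qualifying intron (vertical axis) in 10 equal bins of the length of protein-coding host genes, from annotated start to end (horizontal axis); the dashed line is the density over all bins, 16.3 per Mb. Bin 1 stands at 23.6 and bin 10 at 13.3 per Mb.

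Many of these TREs were close to another of their kind. In 33.8% the nearest intronic TRE was under 1000 bp away, and in 50.3% under 10000 bp, compared with 37.8% and 56.0% among intergenic TREs. A single site of initiation may thus count more than once. Joining peaks up to 100 bp apart reduced the intronic TREs to 13690 and raised the shares called in LZ, P and D to 76.8%, 67.0% and 28.6%.

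The TREs lay in 7099 host genes, which is 26.0% of the 27325 autosomal genes with any qualifying intron. Of the hosts, 5464 were protein-coding, 976 lincRNA, 371 antisense, 163 processed transcript and 125 of other types. Most TREs, 15099 or 94.6%, lay in 1 gene only, 820 lay in 2 and 41 in 3 or more. In 3548 hosts there was a single TRE, in 656 there were 5 to 9, and 20 hosts had 20 or more. Host length rose with the number of TREs, from a median of 34.9 kb for hosts of 1 to 927 kb for hosts of 20 or more.

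Host promoters were called more often than those of other genes. A promoter was counted as called in a substage when a peak of that list lay under 1000 bp from any TSS of the gene, so no intronic TRE can itself be the promoter peak. In LZ this held for 4862 hosts, or 68.5% (67.4 to 69.6%), where 53.8% of all genes with qualifying intron had a called promoter. In P it was 4998 hosts, 70.4% against 54.5%, and in D 4237 hosts, 59.7% against 45.5%. Hosts are part of all genes, and among the 20226 genes without an intronic TRE the shares were 48.7%, 48.9% and 40.5%. Hosts and other genes differ in length, so hosts were set against protein-coding genes of similar length without an intronic TRE. Among genes under 10 kb, of which 226 were hosts, the promoter was called in LZ for 65.0% (58.6 to 71.0%) of hosts and 42.6% (41.1 to 44.0%) of the others. From 10 to 30 kb these shares were 68.8% and 64.6%, from 30 to 100 kb 79.4% and 74.7%, and from 100 to 300 kb 78.2% and 70.9%. Hosts were thus 4.26 to 7.31 percentage points higher in LZ in these 3 classes, with 4.48 to 5.96 points in P and 1.86 to 4.79 in D. In the class from 100 to 300 kb the D intervals overlapped, 65.8 to 70.5% for hosts and 61.1 to 71.2% for the others. There the P intervals also overlapped, 79.4 to 83.3% and 70.5 to 79.8%. From 30 to 100 kb the D intervals did so, 69.9 to 73.7% and 66.8 to 70.2%. Of the 541 genes of 300 kb or more 18 were not hosts, too few for a narrow interval, and 7 of them (38.9%, 20.3 to 61.4%) had a called promoter in LZ beside 64.6% of hosts.

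Promoters of 4062 hosts (57.2%) were called in all 3 substages, and 1888 hosts (26.6%) had none. Over all genes with qualifying intron these shares were 43.4% and 42.1%. Patterns in between were rarer: 612 hosts had a promoter call in LZ and P, 194 in P only, 168 in LZ only, 130 in P and D, 25 in D only and 20 in LZ and D. With the number of TREs hosted the share with a called promoter showed no steady trend in LZ and D. In P it was higher for hosts of 5 or more than for hosts of 1. In LZ it was 66.9% for hosts of 1 TRE, 70.9% for hosts of 5 to 9 and 65.0% for the 20 hosts of 20 or more. In P these were 68.2%, 75.3% and 75.0%, and in D 58.0%, 60.2% and 55.0%.

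Looked at from the TRE, the host promoter was called in the same substage for 8665 of 12100 LZ-called intronic TREs, or 71.6% (70.8 to 72.4%). For P it was 7501 of 10191, or 73.6%, and for D 2519 of 4169, or 60.4%. Genes with a called promoter also contain most of the qualifying intron, 65.9% in LZ, 69.8% in P and 57.2% in D. The share of TREs exceeded the share of sequence in each list. Per Mb, LZ-called TREs numbered 13.6 in genes with a called promoter and 10.4 in the others, a ratio of 1.30 (1.25 to 1.36). The ratio was above 1 on 19 of 19 autosomes, although only just on chromosome 13. Intervals of these ratios come from the counting interval of the share of TREs. They treat TREs as independent, although all TREs of a gene share its promoter call, so they are too narrow as a spread. For P the densities were 11.1 and 9.22, a ratio of 1.20 (1.15 to 1.26), above 1 on 16 of 19 autosomes. For D they were 4.56 and 3.98, a ratio of 1.14 (1.07 to 1.22), above 1 on 15 of 19. With lists of equal length the same-substage shares were 60.9%, 61.1% and 61.0% and the ratios 1.16, 1.02 and 1.17, so neither the lower D share nor the order of the ratios was kept, and the interval of the P ratio, 0.962 to 1.08, included 1. With scores of at least 0.5 the P ratio was 1.03 (0.979 to 1.09) and that of LZ 1.20. The D ratio was then 0.866 (0.791 to 0.949), in the opposite direction. This limit removes promoter peaks as well as peaks of TREs, and the part of each was not tested.

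Within classes of gene length the direction was kept in LZ and P but not in D. In protein-coding genes of 10 to 30 kb, D-called TREs numbered 4.21 per Mb where the promoter was called and 4.40 where it was not, and in genes of 30 to 100 kb 4.44 and 4.93. In LZ and P the density was higher with a called promoter in each of the 5 length classes, with 11.0 and 8.54 per Mb for LZ in genes of 300 kb or more.

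**Figure D3:**
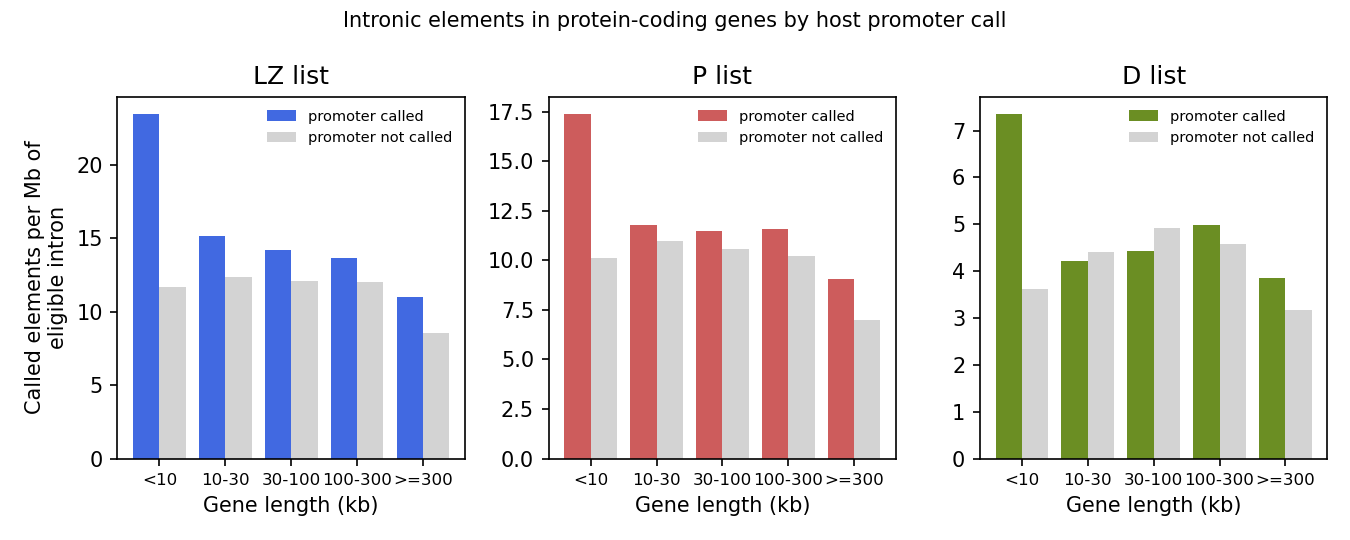
Called intronic TREs per Mb of qualifying intron (vertical axes, scaled separately) in protein-coding genes by gene length (horizontal axes), for genes with the promoter called in the same list (coloured) and not called (grey). LZ and P bars are higher with a called promoter in every length class, and the D bars are reversed at 10 to 30 kb and 30 to 100 kb.

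The substages in which a TRE was called did not follow those of its host promoter closely. Among the 3531 TREs whose hosts had no promoter call, 76.6% were called in LZ, 67.0% in P and 27.7% in D. Among the 9527 in hosts called in all 3 substages, the shares were 75.8%, 62.1% and 25.3%. In the 549 TREs of hosts called in P only, LZ calls (75.8%) were still more frequent than P calls (66.5%). TREs of hosts called in LZ only had the highest P share, 70.4% of 375 (65.6 to 74.8%). The promoter of the host was called in D for 65.0% of LZ-only TREs and for 58.7% of those called in all 3. The highest shares were 68.6% for D-only TREs and 68.9% for the 74 called in LZ and D.

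The hosts with most intronic TREs were long genes, and the first places went to genes whose annotated span holds other genes. Gm20388 (chromosome 8, 4435 kb) had 101 TREs, 74 in LZ, 72 in P and 37 in D, but 71 other protein-coding genes lie inside its span and 48 of the TREs lay in another gene too, 11 of them in Gse1. Fgfr2, a fibroblast growth factor receptor gene annotated over 2961 kb, had 46 TREs, of which 28 lay in another gene too, such as Ctbp2. All 23 TREs of Pakap, which had no promoter call of its own, were also in Palm2 or Akap2, whose promoters were called in each substage. The TREs that these 3 hosts share with another gene cannot be assigned to 1 gene. Gm37240 spans Fbxw7 as well, but 5 of its 26 TREs lay in another gene too.

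Camta1, a calmodulin-binding transcription activator, had 35 TREs, only 3 of them shared, with 23 in LZ, 27 in P and 13 in D. Its promoter scored 1.07, 1.14 and 0.637 in the same order. Pde4d, a cAMP phosphodiesterase, had 27, Magi2, a scaffold protein of cell junctions, 24, Erc2, an active zone protein of synapses, 24, and Ctnna3, an alpha-catenin, 22. All of these had a called promoter in each list. Erc2 had 11 LZ-only TREs of 24, whereas in Camta1 5 of 35 were LZ only, beside 32.4% of all intronic TREs.

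In some other long hosts the promoter was called in only part of the lists or in none. Cdh13, a cadherin without a transmembrane domain, had 29 TREs, with 23 in LZ, 18 in P and 8 in D, and no promoter call. Tenm2, a teneurin of neuronal adhesion, had 27, with 19 in LZ, 21 in P and 10 in D, again with no promoter call. In Cdh13 8 and in Tenm2 7 of the TREs were called in all 3 lists. Gpc5, a glypican, and the processed transcript gene 6330411D24Rik had 19 and 20 TREs without a promoter call. Ank3, Dpp6 and Ptprn2, with 23 TREs each, had a promoter peak in P alone, with scores of 0.404, 0.416 and 0.343, although 18, 21 and 18 of their TREs were called in LZ. Tshz2, a zinc finger gene, had the reverse, a promoter peak of 0.327 in LZ alone and 22 of 23 TREs called in P, although 11 of the 23 also lay in Gm26883. All 4 of these promoter scores were below the median of their list.

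**Figure D4:**
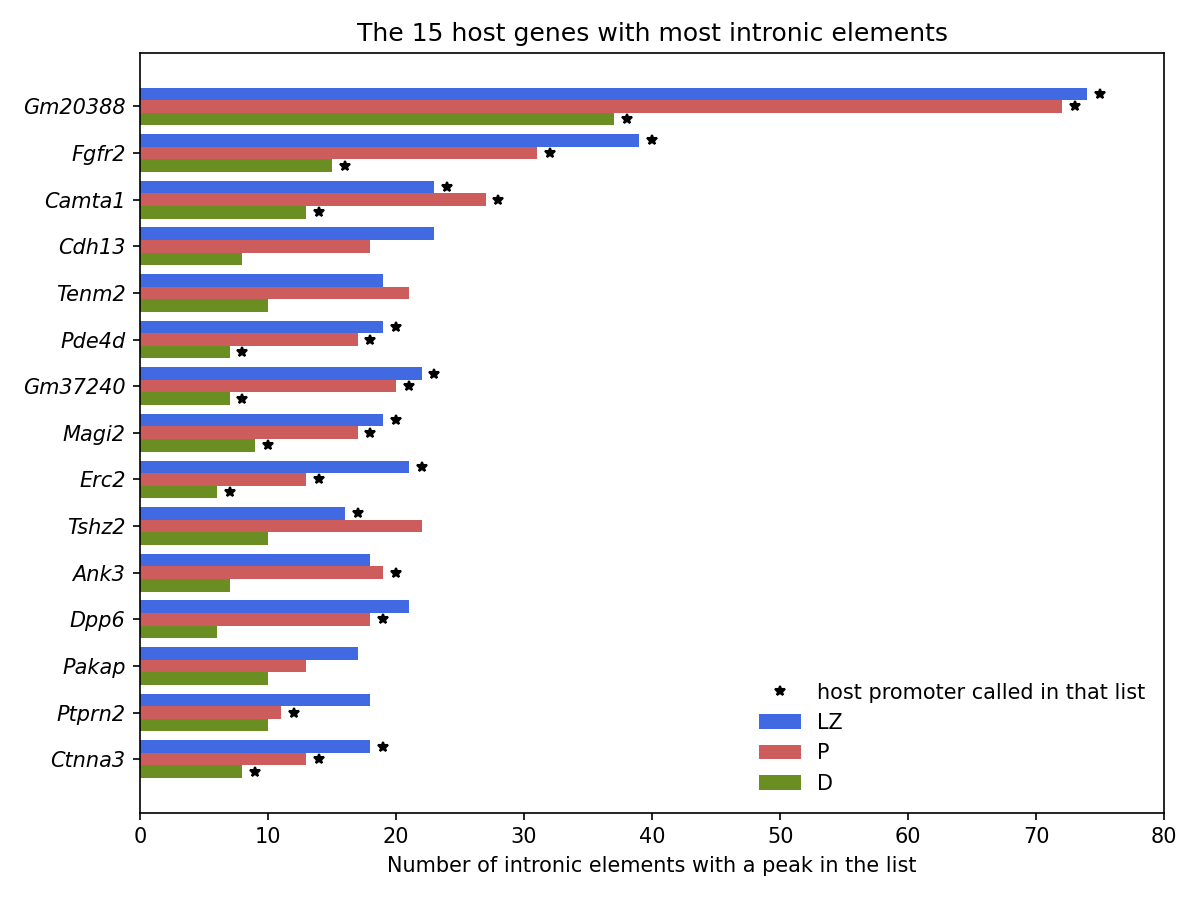
Number of intronic TREs with a peak in the LZ, P and D lists (horizontal axis) in the 15 host genes with most TREs (vertical axis); a star marks a list in which the promoter of the host was called. Cdh13, Tenm2 and Pakap carry no star, and Tshz2, Ank3, Dpp6 and Ptprn2 carry 1 each.

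Relative to their intron, shorter genes ranked first. Among protein-coding hosts of 5 or more TREs, Kif3b, a kinesin motor subunit of ciliary transport, had 7 TREs in 35.4 kb of qualifying intron, or 19.8 per 100 kb. Several of these adjoin, such as those from 153297111 to 153297710 and from 153297721 to 153298490 on chromosome 2, which are 10 bp apart. Ralgds had 19.6 per 100 kb, Bco1, a carotenoid-cleaving enzyme, 18.5, Cotl1 18.4 and Svop 18.1. Hsd17b11, Srgn, Plekhm2, the glucose transporter gene Slc2a3 and the phosphatase gene Ppm1d followed, between 15.8 and 17.7. This ranking depends on how close peaks are split: the 5 TREs of Cotl1 are 20 bp apart, and with peaks up to 100 bp apart merged they become 1 and those of Kif3b 4. Of the 10 hosts, 7 then have fewer than 5 TREs, and Bco1, Svop and Slc2a3 keep 6, 7 and 8. The promoters of all these except Bco1 were called in each list. In Bco1 the strongest TRE, at 117115381 to 117116530 on chromosome 8, scored 1.17 in LZ, 1.11 in P and 0.792 in D.

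Genes with known roles in spermatocytes were grouped by function. Among 19 genes of the piRNA pathway, which silences transposons in germ cells, 9 were hosts (47.4%, where 29.7% of protein-coding genes with qualifying intron were hosts). Their 29 TREs gave 35.5 per Mb, beside 16.4 over all protein-coding genes. The median length of the list was 53.0 kb against 21.8 kb, and of protein-coding genes of 30 to 100 kb 43.4% were hosts. Tdrd9, a helicase of the pathway, had 5 TREs, all of them LZ only, with scores of 0.659, 0.703, 0.418, 0.294 and 0.282. Those from 111990341 to 111990660 and from 111990681 to 111991130 on chromosome 12 adjoin. So do those from 112015321 to 112015640 and from 112015661 to 112015990, so a single site may count more than once. The Tdrd9 promoter was called in each list, with scores of 1.12, 1.16 and 1.10. Tdrd7, a tudor domain protein of the chromatoid body, had 7 TREs, all called in LZ and 3 in P. Piwil1, the PIWI protein of pachytene piRNAs, showed a different set, with 5 of 5 TREs called in P and 2 in LZ. Its strongest TRE, at 128733731 to 128734390 on chromosome 5, scored 1.03 in LZ, 0.859 in P and 0.379 in D.

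Of 21 genes of the chromosome axis and synaptonemal complex 8 were hosts (38.1%, beside 29.7% of protein-coding genes). The median length of the 21 was 32.2 kb against 21.8 kb, and of protein-coding genes of 30 to 100 kb 43.4% were hosts. The list had 19 TREs, at 16.0 per Mb, close to the density over all protein-coding genes. Promoters of the 21 genes were called in 20 cases in LZ, 20 in P and 19 in D. Over the 18388 protein-coding genes with qualifying intron, 11721, 11839 and 10141 promoters were called. Sycp1, which encodes the transverse filament of the synaptonemal complex, had 4 TREs, and the one at 102865561 to 102866370 on chromosome 3 scored 1.24 in LZ, 1.12 in P and 1.04 in D. Nipbl, a cohesin loader, had 5, and the meiotic cohesin gene Smc1b 3. In double-strand break formation and recombination, a list with a median length of 47.7 kb, 15 of 37 genes were hosts (40.5%), with 45 TREs and 19.2 per Mb. Among them were Hsf2bp, a protein of meiotic recombination, with 7, and Tex15 with 6. In Tex15 all 6 were called in LZ and 2 in P, and those 2 were also the only D calls, with P scores of 0.768 and 1.27. The Tex15 promoter was called in LZ and P, with scores of 1.18 and 1.04, and not in D.

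Among transcription regulators of prophase I, 12 of 27 genes with qualifying intron were hosts (44.4%, beside 29.7% of protein-coding genes), with 48 TREs and 20.3 per Mb. The list had a median length of 37.7 kb, and of protein-coding genes of 30 to 100 kb 43.4% were hosts. Of the 48 TREs 36 were called in P and 32 in LZ, the reverse of the order over all genes. Sox5, an HMG-box factor, contributed 18 TREs, 15 called in P and 9 in LZ, and 7 of them P only. Without it the list has 30 TREs, 21 in P and 23 in LZ, so the order rests on Sox5. Bach2 had 7 TREs and Rfx2, a regulator of ciliary and spermatid genes, 5. Axoneme and flagellum genes were hosts in 28 of 38 cases (73.7%, beside 29.7% of protein-coding genes), with 99 TREs and 17.1 per Mb. They are long, with a median of 109 kb against 21.8 kb for protein-coding genes. Of protein-coding genes of 100 to 300 kb 82.0% were hosts, and of those of 30 to 100 kb 43.4%. The dynein heavy chain genes Dnah7b and Dnah7a had 8 and 7 TREs, and Hydin, a central pair protein, 8. Of 16 acrosome and spermatid genes with qualifying intron, 7 were hosts (43.8%, beside 29.7% of protein-coding genes). The list had a median length of 26.5 kb, and of protein-coding genes of 10 to 30 kb 17.2% were hosts. The 7 hosts were led by Spata16, a gene needed for acrosome formation, with 9 TREs, followed by Hook1 and Dpy19l2 with 3 each.

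Long genes of neurons and cell adhesion were the list with most hosts. All 37 autosomal members hosted TREs, 444 in total, yet their density was 9.59 per Mb, below the 16.4 per Mb of protein-coding genes. Of all protein-coding genes of 300 kb or more 96.7% were hosts. In that class LZ-called TREs alone numbered 11.0 per Mb with a called promoter and 8.54 without, the lowest of the length classes. Of the 444 TREs 360 were called in LZ, 281 in P and 132 in D, where all intronic TREs had shares of 75.8%, 63.9% and 26.1%. Promoters of 20 of the 37 were called in LZ, 24 in P and 21 in D, and 13 had no promoter call in any list. Protein-coding genes of 300 kb or more had a called promoter in 63.8%, 70.8% and 52.5% of cases. The 37 genes have a median length of 1125 kb and hold 46.3 Mb of qualifying intron. The part of length in their number of hosts was not tested.

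The labelled cell type was checked by promoters of marker genes. The spermatocyte markers Sycp1, Sycp3, Spo11 and Mybl1 were called in each list, 4 of 4. Of 5 spermatid markers 4 were called in each list, and of 5 spermatogonial markers 4 were called in LZ, 4 in P and 3 in D. Peritubular and macrophage markers were called in 0 of 2 and 0 of 3 cases. Sertoli cell markers were called in 4 of 7 cases in LZ, 6 in P and 5 in D, and Leydig cell markers in 0, 1 and 0 of 5. Over all genes with qualifying intron the promoter was called in 53.8%, 54.5% and 45.5% of cases. A called promoter is not a level, and these counts do not give the share of any cell type.

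Some intronic TREs lay in these marker genes. Cyp11a1, the enzyme of Leydig cells that begins steroid synthesis, had 3 TREs, with scores of 0.429, 0.501 and 0.384, all in P only, and a promoter peak of 0.414 in P only. Gata4, a transcription factor of Sertoli and Leydig cells, had 5 TREs, 4 of them P only with scores from 0.337 to 0.395. In Gfra1, a receptor subunit of undifferentiated spermatogonia, 3 of 4 TREs were called in all 3 lists, the strongest with 1.01, 1.09 and 0.956, while its promoter was not called. Dmrt1 and Kit, which act in spermatogonia, had 2 TREs each, the Dmrt1 pair LZ only and the Kit pair called in P, with 1 of them also called in LZ. Wt1, a Sertoli cell factor, had 1 TRE in LZ only and 1 in P only. The smooth muscle myosin gene Myh11 and the leukocyte gene Ptprc had 1 TRE each, without a promoter call. The part of other cell types in these calls was not tested.

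In base composition intronic TREs lay between their surroundings and promoters. The median GC content of the central 200 bp was 47.0% (interquartile range 42.5 to 51.5%), compared with 42.2% for all qualifying intron, 47.5% for intergenic TREs and 56.0% for proximal TREs. They held 2.73 CpG dinucleotides per window on average against 10.5 in proximal TREs, and 17.9% held none. P-only TREs had 3.28 and LZ-only TREs 2.37. Windows at least 50% soft-masked as repeats made up 14.3% of intronic and 21.6% of intergenic TREs. The qualifying sequence itself was soft-masked over 29.8% of its intronic and 39.1% of its intergenic bases.

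Short motifs were searched on both strands of the same windows, by exact match to MYB CNGTTG, the CREB/CREM palindrome TGACGTCA, RFX GTTGCCA, NRF1 GCGCNTGCG, ETS CCGGAAG, NFY CCAAT, SP/KLF GGGCGG, AP-1 TGANTCA and TATAAA of the TATA box, where N is any base. The MYB and RFX letters overlap in their GTTG core, so 1 stretch can count for both. MYB was in 4834 intronic TREs, or 30.3% (29.6 to 31.0%), with 28.8% of all TREs and 25.4% of proximal TREs. By call pattern it was highest in TREs called in P and D, 245 of 643 or 38.1% (34.4 to 41.9%), and 28.4% (27.2 to 29.7%) in LZ-only TREs. D-only TREs had 28.7% (25.0 to 32.7%), no different from LZ-only TREs within counting error. TREs called in P and D also had a higher GC content, with a median of 49.5% against 46.5% in LZ-only TREs, and the part of base composition in the MYB share was not tested.

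RFX showed another order. It was in 6.22% (5.40 to 7.15%) of TREs called in all 3 lists, 5.88% of those called in LZ and P, 3.12% (2.53 to 3.85%) of P-only TREs and 2.80% (1.78 to 4.38%) of those called in P and D, with 4.81% of intronic and 4.33% of all TREs. ETS matches were in 2.94% of P-only and 1.32% of LZ-only TREs, with 2.01% of intronic and 3.54% of all TREs. SP/KLF was in 5.86% of intronic TREs, 16.2% of all TREs and 30.5% of proximal TREs. NRF1 was found in 0.583% of intronic and 3.26% of proximal TREs, CREB/CREM in 0.733% and 1.02%. TATA, AP-1 and NFY matches, like those of MYB, 30.3% against 25.4%, and RFX, 4.81% against 3.23%, were more frequent in intronic than in proximal TREs. TATA was in 10.9% against 5.88%, AP-1 in 7.70% against 4.50% and NFY in 24.7% against 21.3%, with 8.91%, 6.32% and 24.1% of all TREs. Intergenic TREs had similar or higher shares of each, 11.4% for TATA, 7.64% for AP-1, 27.5% for NFY, 31.8% for MYB and 5.45% for RFX. The part of base composition in these differences was not tested.

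**Figure D5:**
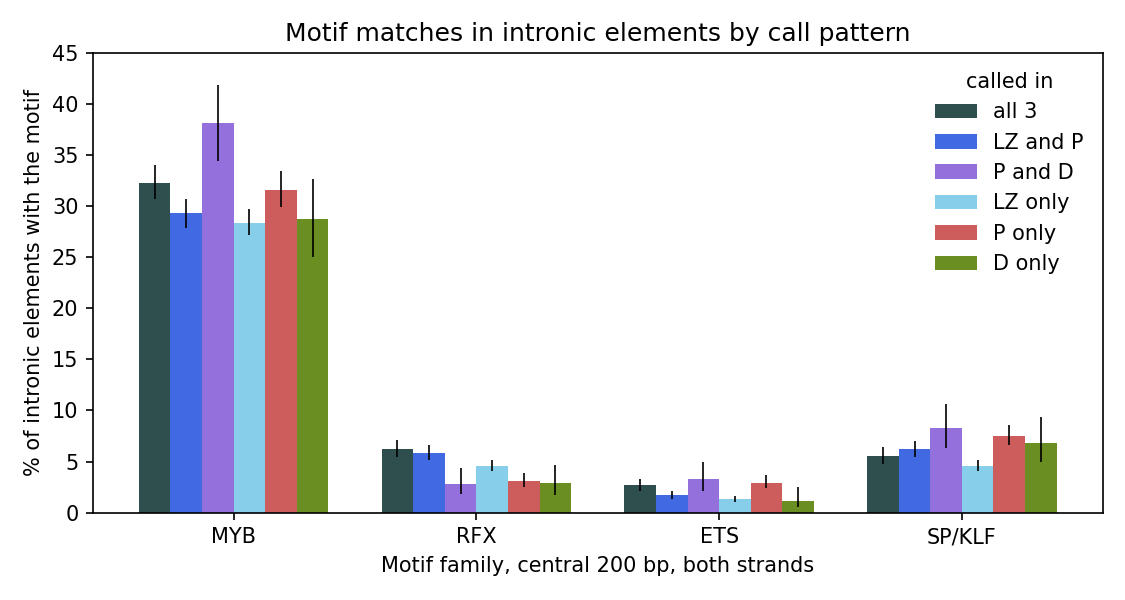
Percent of intronic TREs (vertical axis) with a match to the MYB, RFX, ETS and SP/KLF letters in the central 200 bp (horizontal axis), by the lists in which the TRE was called; black lines are Wilson 95% intervals. MYB is highest in TREs called in P and D, at 38.1%, and RFX in TREs called in all 3 lists, at 6.22%.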

How the data were processed

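PCR duplicates were discarded by molecular identifier, adapters were cut with cutadapt, and reads were aligned to mm10 with BWA, all by the authors, who then ran dREG at its defaults on the pooled libraries of each substage. The 3 deposited lists give for every peak a dREG score and a p-value, both made by the authors. Scores are not scaled between lists, no p-value exceeded 0.05, and the lists hold no read counts. The library sizes behind them were not used here.

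Peaks were merged where they overlapped or touched. Classes, hosts and promoters used GENCODE M21, and sequence came from RefSeq GRCm38.p6. Qualifying sequence lay at least 1000 bp from every TSS. Shares have Wilson 95% intervals for counting only, and the intervals of the density ratios were computed from them. Neighbouring TREs are not independent, and the range over 19 autosomes served as the spread. Members and gene lists were chosen with earlier results of these data known.

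The genes named were the 15 hosts with most TREs, the 10 protein-coding hosts with most TREs per 100 kb among those with at least 5, the 5 largest hosts without a promoter call, and the 3 leading genes of each list, of which 1 is not reported here. The sequences were those of the best-ranked TRE of each call pattern, with chromosome 18 left out for those printed. The regulators without Sox5, the hosts named for a single pattern of calls, the merged counts of the densest hosts, the widths of single peaks and the comparison of hosts with other genes by length were chosen after their values had been seen. The class, host and motif rules were tested on simulated data. Alternatives changed the score or p-value limit, list length, merging, TSS set and distance, and the exon and promoter rules. The software was scipy 1.17.1, matplotlib 3.10.9, pandas 2.3.3 and numpy 2.4.6, under Python 3.11.15.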

Additional observations from a re-analysis of the deposited data

How the results depend on the processing

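No paired analysis was possible because the libraries of a substage had been pooled into 1 list, which also means that no library could be left out. Of 140 recomputed shares, counts, densities and ratios, 65 stayed within the interval of the reported value or within 1.5 times the reported count or density, 74 moved beyond it and 1 reversed. Apart from what an alternative removes by construction, the cause was not tested. The ratio of densities by host promoter was added to the alternatives after seeing the data. Values follow in the order LZ, P, D.

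With scores of at least 0.5 there were 8182 intronic TREs at 8.46 per Mb, with 8.46 per Mb between genes. They were called in 83.4%, 65.3% and 23.0%, the host promoter was called in the same substage for 63.3%, 62.4% and 42.8%, promoters of 60.9%, 62.5% and 48.4% of hosts were called, and the ratio of densities by host promoter was 1.20, 1.03 with an interval of 0.979 to 1.09 that included 1, and, reversed, 0.866. With p-values of at most 0.01, 77.1% were called in LZ, the same-substage shares were 69.0%, 70.2% and 55.8%, the shares of hosts 66.1%, 68.2% and 56.6%, and the ratio 1.14 in P and 1.07 in D, where its interval of 0.995 to 1.14 included 1. Lists of equal length gave 8451 intronic TREs, 8.74 per Mb and 8.59 per Mb between genes. Calls were then 71.1%, 59.0% and 51.9%, still lowest in D. The same-substage shares were 60.9%, 61.1% and 61.0% and the shares of hosts 59.3%, 61.6% and 59.5%, so D was no longer the lowest in these. The ratios were 1.16, 1.02 (0.962 to 1.08) and 1.17, and their order was not kept. Of the 15 largest hosts, 13 moved by over 1.5 times under the score limit and 12 under equal list length.

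Merging peaks up to 100 bp apart gave calls of 76.8%, 67.0% and 28.6%. With TSSs of protein-coding genes only, calls were 64.8% in P and 27.7% in D, same-substage shares 73.2%, 75.2% and 63.8%, shares of hosts 69.9% in LZ and 72.0% in P, and ratios 1.42, 1.32 and 1.33. With RefSeq TSSs, same-substage shares were 74.4%, 76.5% and 65.4%, shares of hosts 70.7%, 72.4% and 60.9%, and ratios 1.48, 1.39 and 1.40. A distance limit of 500 bp gave 74.8% called in LZ, same-substage shares of 73.8%, 75.9% and 63.4%, shares of hosts of 71.0%, 72.6% and 61.6%, and ratios of 1.45, 1.35 and 1.29. When a promoter peak had to cover a TSS, same-substage shares were 65.8%, 68.2% and 55.0%, shares of hosts 63.2%, 65.3% and 54.5%, and the P ratio 1.15. Requiring no base in an exon, or counting only TREs in 1 gene, moved none of the values recomputed for them.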

Other observations

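The genes in this paragraph were chosen after their values had been seen. Of 813 hosts with 5 or more intronic TREs, 191 had every TRE called in LZ, 55 had every TRE called in P and 0 had every TRE called in D. Over all intronic TREs 75.8%, 63.9% and 26.1% were called in LZ, P and D, and no test was made of whether hosts depart from these shares. No TRE was called in LZ in 1 of the 813, the tetraspanin gene Tspan5, in P in 6 and in D in 122. LZ-only TREs, 32.4% of all, made up 13 of 19 in Cntnap2, a neurexin-related adhesion gene. In Fhit, a tumour suppressor at a fragile site, they made up 10 of 19. P-only TREs, 16.9% of all, made up 7 of 13 in Prkg1, a cGMP-dependent kinase, 7 of 18 in Sox5 and 6 of 17 in Maml3, a Notch coactivator. Gm20388, whose span holds other genes, had more of each, 27 LZ only and 17 P only of 101. D-only TREs, 3.30% of all, numbered 3 of 11 in Msi2, an RNA-binding protein, and 3 of 35 in Camta1, the most in any host. In Iqce and 1700121C08Rik they were 2 of 2, and in Ctdp1 and Afg1l 2 of 3. The promoters of Cntnap2, Fhit, Prkg1, Sox5, Maml3, Msi2 and Camta1 were called in each list.

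Among the 813, the promoter was called in 573 (70.5%) in LZ, 610 (75.0%) in P and 487 (59.9%) in D. Over all hosts these shares were 68.5%, 70.4% and 59.7%, and over all genes with qualifying intron 53.8%, 54.5% and 45.5%. At least 1 TRE was called while the promoter was not in 240 hosts in LZ, 203 in P and 279 in D.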
